A study of Macaca mulatta with 25 samples.

Results

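The genes described here are 10 of the 35395 in the count table of rhesus macaque blastocysts: HAS2, VCAN, TNFAIP6, COL1A1, COL1A2, COL3A1, LUM, GREM1, AMH and FOXL2. They were chosen from their measured levels in the control libraries, as genes of stromal matrix and of the cumulus cells around the egg. The question was whether such transcripts came from attached maternal cells or from embryonic mesenchyme. Each of the 10 symbols matched 1 gene identifier of the table. Their levels in controls, and their fitted changes against controls, are therefore a description and test nothing about these genes.

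A blastocyst is a hollow embryo ready to implant. The embryos came from eggs of female macaques that entered the study at about 2.5 years of age, 10 per group. The T group had testosterone implants, which gave 3 to 5 times the usual blood level, and standard chow (15% fat, 59% carbohydrate, 26% protein). The WSD group ate a Western-style diet with more fat (36%) and less carbohydrate (46%) and protein (18%), the TWSD group had both the testosterone implants and this diet, and the C group had cholesterol implants and the chow. After 5 to 6 years 7 T, 6 WSD, 3 TWSD and 10 C females could undergo ovarian stimulation, and semen of 4 males was used for in vitro fertilisation. There were 10 T, 8 WSD, 2 TWSD and 5 C libraries (C 1, C 2, C 8, C 11 and C 12). The labels give no mother, father or batch per library, and do not say whether 1 library is 1 embryo. The libraries outnumber the 4 males, and the T and WSD libraries outnumber their females (10 from 7 and 8 from 6). Some libraries must therefore share a father, and some within T and within WSD a mother. A p-value here reflects variation among libraries that are not all independent, though the main fits treat them so. Per the labels' protocols, cumulus cells were removed from the eggs with hyaluronidase and pipetting, the zona pellucida was taken off, and embryos were washed before freezing after up to 8 days.

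Around the ovulated egg, cumulus cells spin out a soft matrix of hyaluronan, which is made at the cell surface by HAS2, loaded with proteins by TNFAIP6 and bound by the proteoglycan versican (VCAN). Fibrous stroma is built differently, from collagen chains that fold into triple helices and assemble into fibrils with small proteoglycans such as lumican (LUM). Granulosa and cumulus cells carry a program of their own, with the FSH receptor, aromatase, inhibin, AMH and the transcription factor FOXL2. Primates also form an extra-embryonic mesoderm very early, a mesenchyme that lines the cavities outside the embryo proper and makes collagen-rich matrix.

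Library totals ran from 14219054 to 35544542 counts. Levels are CPM, read counts scaled to equal library size with TMM factors, and 3 counts, taken as the limit that a count of 0 allows, are 0.0844 to 0.211 CPM by library. These limits cover counting error only. Some libraries differed from the rest (T 1 and 3 controls, C 8, C 11 and C 12), and values are given with and without them. CGA, the alpha subunit of chorionic gonadotropin, reached 1004 CPM (T 1), 3025 (C 8), 2400.3 (C 11) and 1073 CPM (C 12), and at most 4.24 CPM in the other 21 libraries. In whole embryos fewer cells of a type and less RNA per cell cannot be told apart.

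The 10 genes did not form a single block. HAS2, VCAN, TNFAIP6, COL1A1, COL1A2, COL3A1 and LUM were all highest in C 11, AMH and FOXL2 were highest in C 12, and GREM1 was highest in WSD 10. At a level of at least 1 CPM, 7 of the 10 were present in C 11, 6 in C 8, 6 in T 1, 4 in C 12, and none in T 3 and TWSD 2. The 10 genes took 1.26% of all counts in C 11 (exact binomial 95% interval 1.256% to 1.264%), 0.0445% in T 1 (0.0434% to 0.0456%) and less in every other library.

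**Figure D1:**
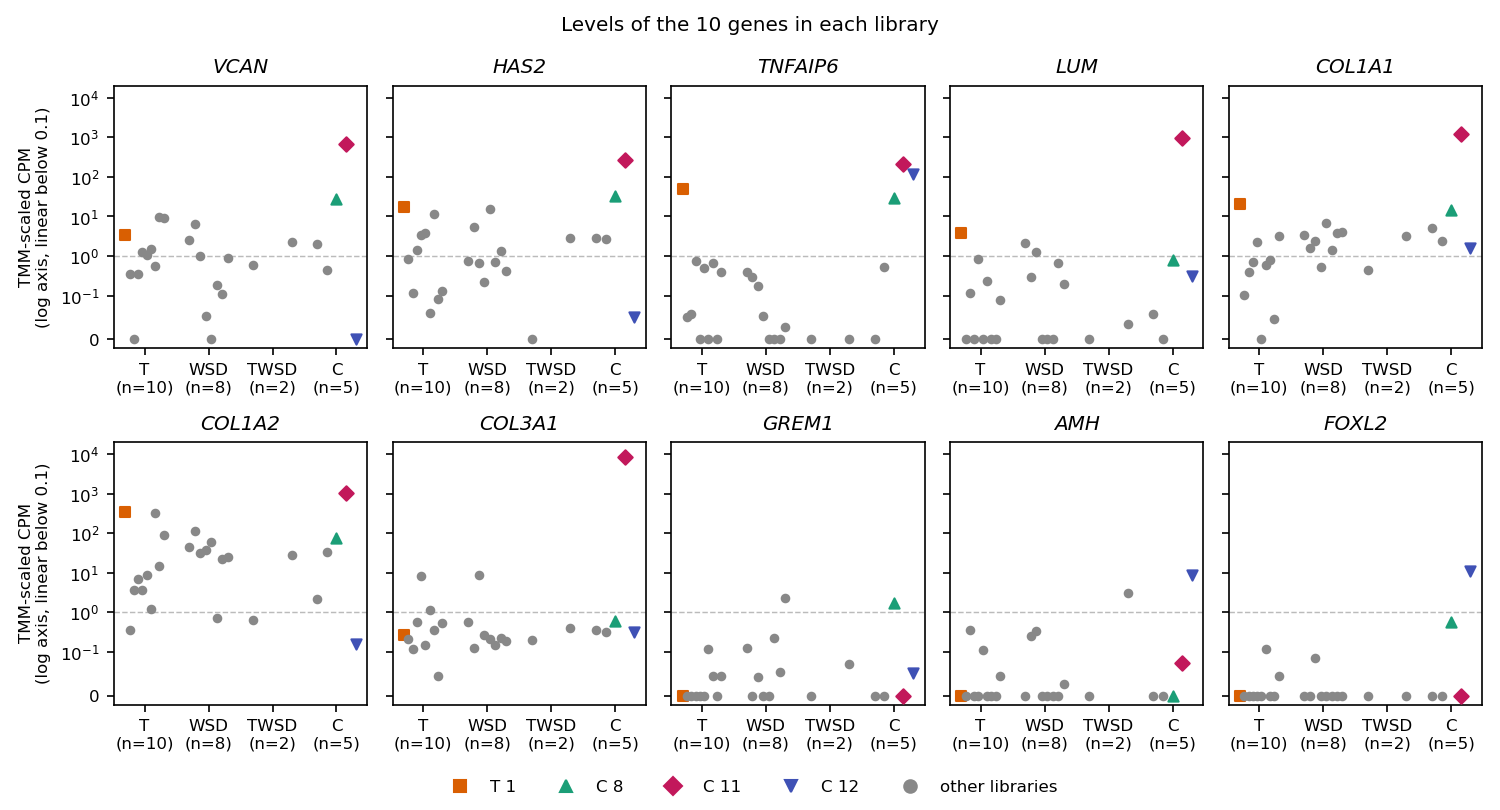
TMM-scaled CPM of each of the 10 genes (y axis, log scale, linear below 0.1) in every library, by group (x axis: T, WSD, TWSD, C). Each point is 1 library, and T 1, C 8, C 11 and C 12 have symbols of their own. C 11 is the top point for 7 genes, and the dashed line marks 1 CPM.

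HAS2 (ENSMMUG00000045043), the synthase that extrudes hyaluronan, ran from 0.0594 to 17.7 CPM in T (median 1.13), with the highest value in T 1. In WSD it ran from 0.216 to 15.5 CPM (median 0.731), highest in WSD 7, and the TWSD libraries had 0 and 2.88 CPM. Controls had 2.82 CPM (C 1), 2.73 (C 2), 32.4 (C 8), 267 (C 11) and 0.0522 (C 12). C 8 and C 11 lay above every T, WSD and TWSD library, while C 12 lay below all but the TWSD library at 0, so the groups overlapped.

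VCAN (ENSMMUG00000011513), the large proteoglycan that binds hyaluronan, ran from 0 to 9.72 CPM in T (median 1.16), and from 0 to 6.28 CPM in WSD (median 0.542). It was at 0.580 and 2.26 CPM in the TWSD libraries. Controls had 2.00 CPM (C 1), 0.455 (C 2), 28.0 (C 8), 667 (C 11) and 0 (C 12). C 11 held 17791 of the 19334 VCAN counts in the table, C 8 was next, and the other controls lay within the T range.

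TNFAIP6 (ENSMMUG00000010927), which transfers heavy chains of serum proteins onto hyaluronan, was at 48.9 CPM in T 1. The other T libraries were at most at 0.738 CPM, for a T median of 0.230. WSD ran from 0 to 0.384 CPM (median 0.0407), and both TWSD libraries had 0 counts. Controls had 0 CPM (C 1), 0.520 (C 2), 28.5 (C 8), 212 (C 11) and 122 (C 12). TNFAIP6 reached 1 CPM in exactly 4 libraries, T 1, C 8, C 11 and C 12, and these are the 4 with CGA above 1000 CPM. TNFAIP6 differed from HAS2 and VCAN in C 12, where it was high and they were at or near 0.

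Other genes of the hyaluronan matrix were also described from a list of 22, without the 3 genes above. Of the 11 that reached 1 CPM in at least 5 libraries, 5 (45.5%) had their highest level in C 11, against 13.4% of all 13934 genes that passed the same filter. HAPLN1, the link protein that ties versican to hyaluronan, was at 25.6 CPM in T 1, 117 CPM in C 8 and 566 CPM in C 11, with no count in C 12, and at most 18.8 CPM elsewhere (WSD 6). ADAMTS1, a protease that cuts versican, was at 36.2 CPM in T 1, with 143 CPM in C 8, 539 CPM in C 11 and 91.2 CPM in C 12. ITIH1, a heavy chain that TNFAIP6 moves onto hyaluronan, was at 320 CPM in C 11 and at most 3.39 elsewhere. PTX3, which cross-links the cumulus matrix, had no count in C 11, C 8 or C 12, and its highest level was 1.06 CPM in C 1. Of 10 inducers of cumulus expansion that passed the filter, 1 was highest in C 11 (10%), and the ligands AREG and EREG had no count in C 8, C 11 or C 12. Summed over the 16 genes of that list, the level was still highest in C 12 (525 CPM) and C 11 (433 CPM). It was 307 CPM in C 8, 314 CPM in T 1 and at most 364 CPM in the other 21 libraries. At least 1 CPM was reached by 11 of the 16 in C 12, 7 in C 11 and 5 to 9 in the 21.

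COL3A1 (ENSMMUG00000021286), the chain of type III collagen, was the most uneven gene. T libraries ran from 0.0456 to 8.21 CPM (median 0.312, highest in T 6) and WSD libraries from 0.128 to 8.53 CPM (median 0.214, highest in WSD 4). TWSD libraries had 0.193 and 0.395 CPM. Controls had 0.352 CPM (C 1), 0.325 (C 2), 0.610 (C 8), 8644 (C 11) and 0.313 (C 12). C 11 held 230530 COL3A1 counts, against 514 in the other 24 libraries together, each of which had 1 to 200. In C 11 it was the fourth most counted gene, after APOA1, a gene with no symbol in the tables used, and FN1. Outside C 11 no group stood apart from another in COL3A1.

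LUM (ENSMMUG00000016995), a small proteoglycan that spaces collagen fibrils, ran from 0 to 3.83 CPM in T (median 0.0446, highest in T 1) and from 0 to 2.11 CPM in WSD (median 0.240). TWSD libraries had 0 and 0.0359 CPM, and controls had 0.0587 (C 1), 0 (C 2), 0.814 (C 8), 974 (C 11) and 0.313 (C 12). LUM was high in C 11 alone, which held 25978 of 26174 LUM counts. DCN, which codes for the related proteoglycan decorin, was at 715 CPM in C 11 and at most 1.28 elsewhere.

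COL1A1 (ENSMMUG00000001467) and COL1A2 (ENSMMUG00000039654) code for the 2 kinds of chain of type I collagen. COL1A1 ran from 0 to 20.9 CPM in T (median 0.644, highest in T 1) and from 0.541 to 6.84 CPM in WSD (median 2.84), and was at 0.451 and 3.20 CPM in TWSD. Controls had 4.99 CPM (C 1), 2.41 (C 2), 14.6 (C 8), 1239.6 (C 11) and 1.57 (C 12). Apart from C 11, control levels lay within the range of T.

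COL1A2 was counted in all 25 libraries and was the most widely present of the 10 genes, with at least 1 CPM in 21. It ran from 0.361 to 337 CPM in T (median 7.92), with T 1 at 337 and T 9 at 330.4, and from 0.730 to 111 CPM in WSD (median 34.9). TWSD libraries had 0.644 and 28.5 CPM, and controls had 2.11 (C 1), 34.5 (C 2), 73.8 (C 8), 1066 (C 11) and 0.157 (C 12). C 12 had 3 COL1A2 counts, the lowest level of all libraries, and C 11 had the highest, so the controls spanned the whole range.

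The partner chains did not keep a fixed ratio. COL1A2 counts were 16.1 times COL1A1 counts in T 1, 28.2 times in T 11, 67.8 times in WSD 3 and 8.90 times in TWSD 3, against 0.424 times in C 1, 5.04 times in C 8 and 0.860 times in C 11. In the 12 libraries with at least 50 COL1A1 counts, C 1 and C 11 were the ones with a ratio below 5. T 9 had 7530 COL1A2 counts beside 18 COL1A1 counts, and C 12 had 3 beside 30. A ratio between genes also holds their lengths, which cancel between libraries.

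**Figure D2:**
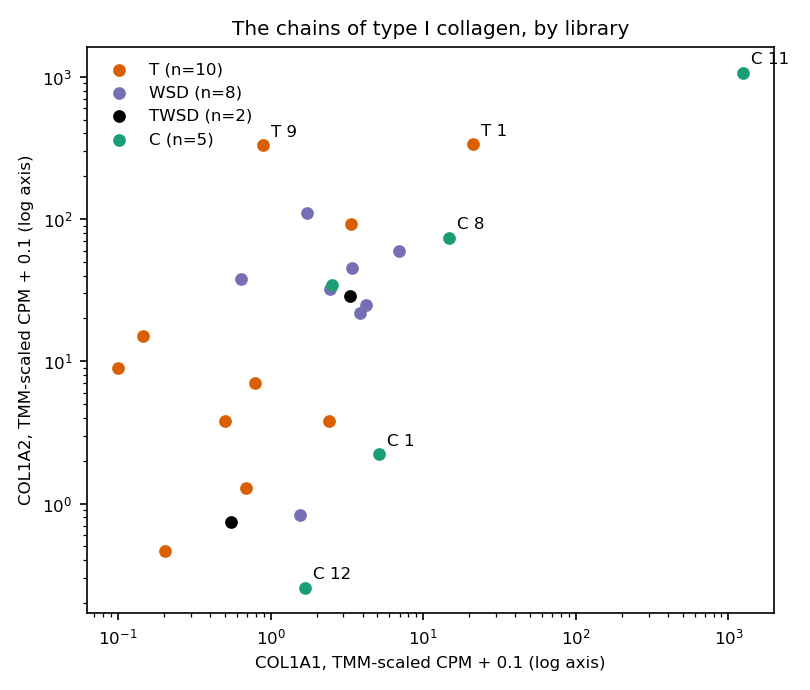
COL1A2 (y axis) against COL1A1 (x axis), both as TMM-scaled CPM plus 0.1 on log axes, 1 point per library, coloured by group. C 11 lies alone at the top right, T 1 and T 9 have high COL1A2 with far less COL1A1, and C 12 lies at the bottom.

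Other collagens and fibril proteins followed C 11 in part. Of 20 listed genes that passed the filter, 9 (45%) were highest in C 11, and of 25 genes that fold, process or cross-link collagen 16 (64%) were, against 13.4% of all genes. In C 11, SPARC, a collagen-binding protein, was at 5381 CPM, the collagen VI chains COL6A1, COL6A2 and COL6A3 at 379, 1191 and 190 CPM, and the cross-linking enzyme LOX at 201 CPM. COL6A3 was at most 1.52 CPM elsewhere and LOX at most 5.96 CPM. SERPINH1, the collagen chaperone HSP47, was at 1512 CPM in C 11 and at most 612 CPM in the other libraries. Elsewhere SPARC reached 1089 CPM in T 1 and 989 CPM in the remaining libraries.

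GREM1 (ENSMMUG00000001810), a secreted BMP antagonist that cumulus cells make, was near absent. It had 132 counts in all and none in 14 libraries, C 11 among them, where 0 counts allow up to 0.108 CPM by library total. T libraries reached at most 0.119 CPM and TWSD at most 0.0719 CPM. WSD 10 had 82 of the counts (2.24 CPM) and C 8 had 33 (1.68 CPM), and no other library passed 0.219 CPM. BMP signalling genes were present in C 11 all the same: BMP2 was at 365 CPM, BMP4 at 97.0 CPM and the target gene ID3 at 514 CPM.

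AMH (ENSMMUG00000058911), the anti-Müllerian hormone of granulosa cells, had 283 counts in all and none in 16 libraries. T libraries reached at most 0.347 CPM and WSD libraries 0.341 CPM. TWSD 3 had 84 counts (3.02 CPM), C 12 had 170 (8.88 CPM), and C 11 had 2 (0.0750 CPM). FOXL2 (ENSMMUG00000053063), a transcription factor that maintains granulosa cell identity, had 225 counts in all and none in 20 libraries. No T, WSD or TWSD library passed 0.119 CPM, while C 12 had 209 counts (10.9 CPM) and C 8 had 11 (0.559 CPM). Most counts of both genes were thus in C 12, and C 11 had no FOXL2 count.

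Some genes beside AMH and FOXL2 were also high in C 12 and others were not, as looked up after the values of both were seen. SF3A2, a splicing factor gene within 5 kb of AMH in a RefSeq annotation of another build, was at 239 CPM in TWSD 3, 1026.5 CPM in C 12 and 180.5 CPM at the median of 25 libraries. C 12 was its highest library. OAZ1, on the other side of AMH, was at 866 CPM in C 12, close to its median of 868 CPM. JSRP1, within 5 kb of AMH, was highest in WSD 9 (1.97 CPM), with 1.46 CPM in C 12. PRR23A, near FOXL2, was at 23.6 CPM in C 12 and at most 4.06 CPM elsewhere, and FOXL2NB, which overlaps FOXL2, had no count in any library. Whether reads of the counted intervals overlap was not tested, since the sources used here give neither the counting method nor its strand setting.

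Markers of other cells were set beside the 10 genes. Of 6 defining granulosa genes, FSHR and LHCGR had no count in C 11, and CYP19A1, the aromatase, had 2. NR5A1, which switches on steroid genes, had 7 counts in C 11 (0.262 CPM). INHA, the inhibin alpha chain, was at 188 CPM in C 11, its highest level (at most 23.9 CPM elsewhere), and AMHR2, the AMH receptor, at 3.52 CPM. In C 12, CYP19A1 was at 376 CPM, INHA at 15.7 and AMHR2 at 2.93, with FSHR, LHCGR and NR5A1 at 0. CYP19A1 was also at 78.2 CPM in T 1 and 13.8 CPM in C 8, and it is a placental gene too. FSHR never passed 0.273 CPM, LHCGR 0.301 CPM or NR5A1 0.273 CPM in any library. AMHR2 passed 1 CPM in TWSD 3 (2.05 CPM), C 8 (1.32), C 11 and C 12. Summed over the 6 genes, the level ran from 0.0983 to 78.8 CPM in T and 0 to 24.4 in WSD. It ran from 0.193 to 3.45 CPM in TWSD and 0.587 to 394 in C. At most 3 of the 6 reached 1 CPM in any library. A wider list of granulosa and cumulus identity had 13 genes that passed the filter. Of these 5 (38.5%) were highest in C 11, against 13.4% of all genes. Of its 22 genes, 13 reached 5 CPM in C 11. In the 21 libraries without T 1, C 8, C 11 and C 12 it was 7 to 10. The summed level of the wider list in C 11 (5201 CPM) lay within the range of those 21 (1569 to 16655). KRT18 is in both this list and the trophectoderm list. Both lists had their highest sum in WSD 6 (16655 and 21395 CPM) and their lowest in C 1 (1569 and 1758 CPM). The sum thus does not give the level of granulosa genes alone.

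Fibroblast genes gave a mixed picture in C 11. DCN was at 715 CPM, but THY1 was at 18.0 CPM, within the range of other libraries (at most 23.2), and PDGFRB at 13.1 CPM against at most 12.9 elsewhere. TWIST2 was at 4.31 CPM in C 11 (3.47 in the next library), and PRRX1 and FAP had no count there. Summed over these 6 genes the level ran from 5.06 to 21.4 CPM in T, 5.19 to 26.4 in WSD, 0.902 to 30.2 in TWSD and 2.41 to 750 in C, where C 11 was the highest.

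Of 20 genes of extra-embryonic mesoderm, 17 reached 1 CPM in C 11, against 3 to 11 in the 21 libraries other than T 1, C 8, C 11 and C 12. T 1 had 11 of them, C 8 had 14 and C 12 had 8. Other lists were also well covered in C 11, but in other libraries too. BMP genes at 1 CPM or more were 25 of 29 in C 11, 25 in C 8 and 8 to 23 in the 21 libraries. TGF-beta genes were 14 of 16 in C 11, 13 in C 12 and 5 to 12 in the 21. All 13 primitive endoderm genes reached 1 CPM in C 11, C 8 and T 1, and 8 to 13 of them in the 21. Of the 12 mesoderm genes that passed the filter, 9 (75%) were highest in C 11, against 7 of 13 primitive endoderm genes (53.8%) and 13.4% of all genes. These lists share GATA4, GATA6 and NID2, and the difference between their shares was not tested. The mesoderm list also shares genes such as VIM and COL6A3 with the fibroblast and collagen lists. VIM, the intermediate filament of mesenchyme, was at 994 CPM in C 11 (at most 17.9 elsewhere) and the transcription factor FOXF1 at 20.6 CPM (at most 3.00). The growth factor HGF was at 147 CPM (at most 17.0 elsewhere) and the VEGF receptor KDR at 238 CPM (at most 10.8). CDH11, a cadherin of mesenchyme from the fibroblast and mesenchyme list, was at 306 CPM (at most 6.14 elsewhere). HAND1, another mesoderm factor that trophoblast also expresses, was not highest in C 11, with 607 CPM (T 1), 548 (C 8), 510.5 (C 11), 0.418 (C 12) and 1356 CPM in WSD 3, the highest. Summed, the list ran from 313 to 2010 CPM in T, 808 to 2222 in WSD, 130 to 993 in TWSD and 553 to 4831 in C.

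Other lineages differed in C 11 as well. The summed primitive endoderm genes were at 22159 CPM in C 11 and at most 7256 CPM in the other libraries, led by APOA1 (17177 CPM). The summed extravillous trophoblast genes, FN1 among them, were at 11410 CPM in C 11 and at most 766 CPM in the 21 other libraries. They were at 1489 CPM in T 1, 1098 CPM in C 8 and 261 CPM in C 12. The summed epiblast genes were at 100.4 CPM in C 11 and 19.3 CPM in C 12, against 491 to 1660 CPM in the 21 other libraries, 607 in C 8 and 1930 in T 1. PTPRC, a marker of blood cells, had no count in C 11, while the endothelial genes PECAM1 and TEK were at 234 and 203 CPM. CD14, another blood-cell gene of that list, was higher in C than in T and WSD. Its log2 change against C was -4.17 in T (edgeR adjusted p = 0.0293) and -4.32 in WSD (adjusted p = 0.0386). Without C 11 no gene of the list was called in T or WSD. These values stand beside the matrix genes of C 11, and the part of any of these lineages in their levels was not tested.

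**Figure D3:**
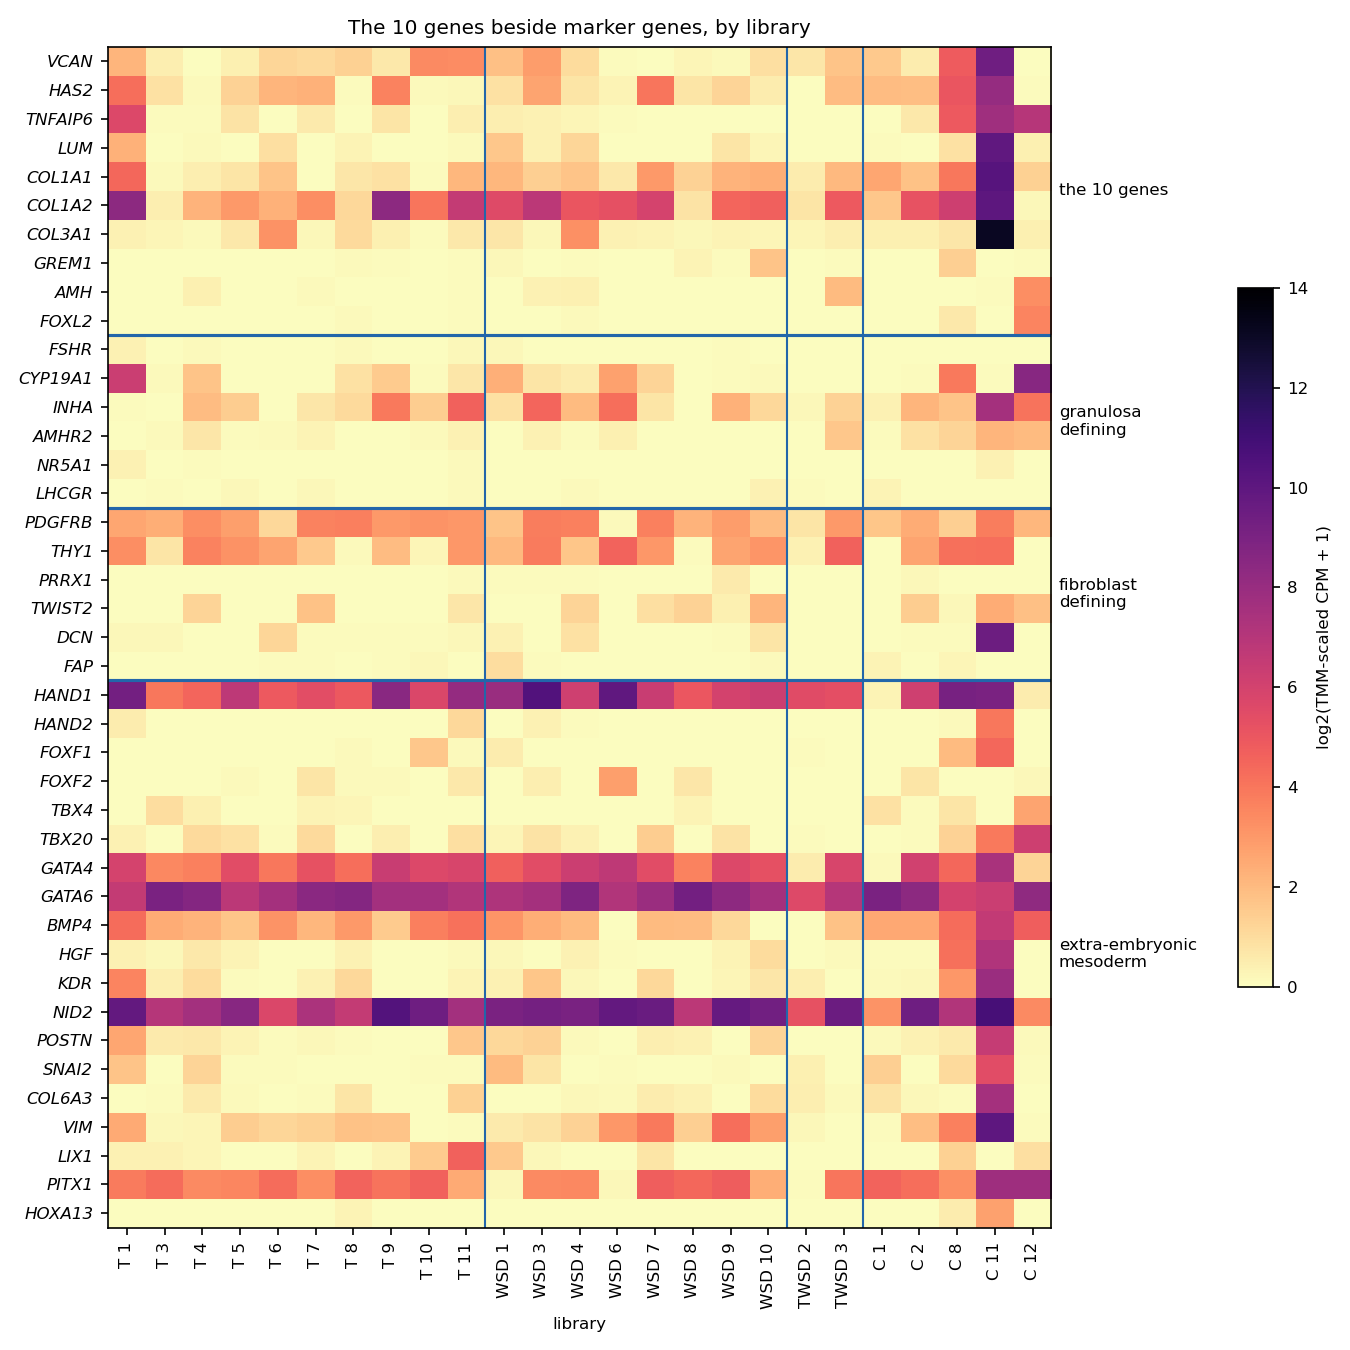
The 10 genes and 3 marker lists, less 1 mesoderm gene (rows), in the 25 libraries (columns: T, WSD, TWSD, C), as log2(TMM-scaled CPM + 1), darker for higher. The column of C 11 is dark at most matrix and mesoderm rows and at the granulosa gene INHA (188 CPM, its highest level). It is pale at GREM1, FSHR, LHCGR, CYP19A1, NR5A1, PRRX1 and FAP. AMH and FOXL2 are visible mainly in C 12.

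**Figure D4:**
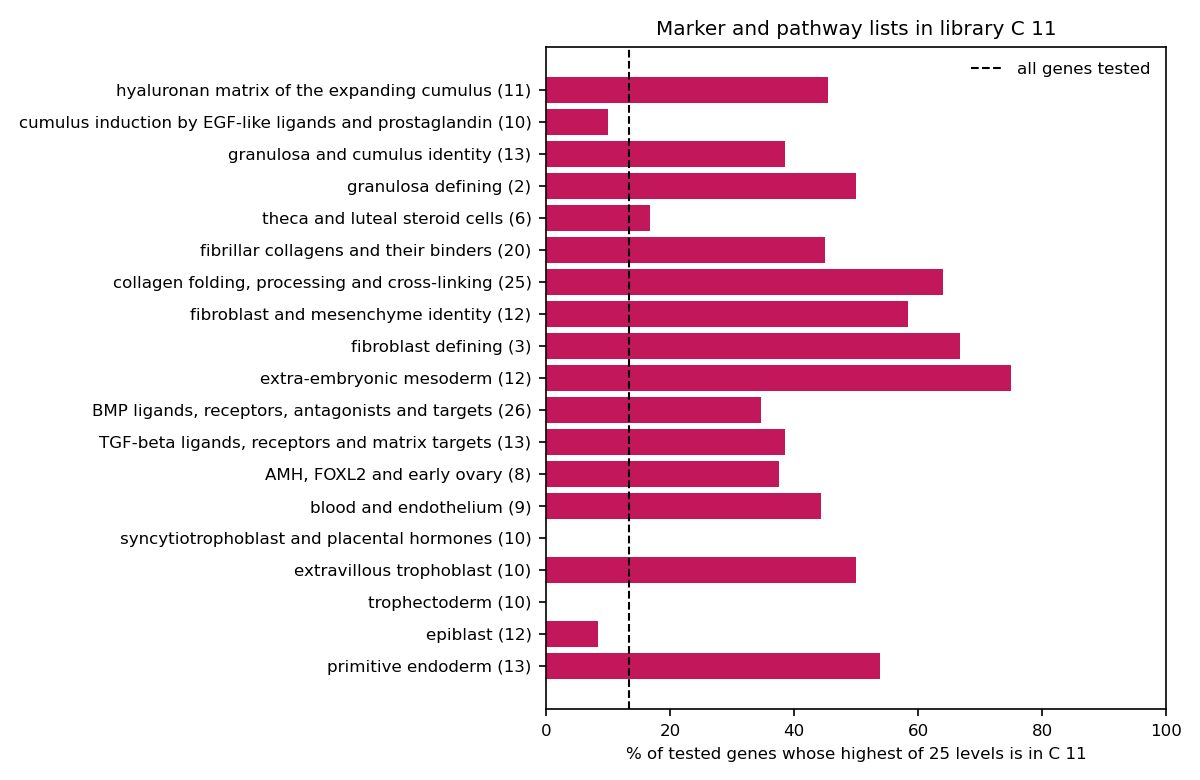
Share of each list's genes (those with at least 1 CPM in 5 or more libraries, number in brackets) whose highest of 25 levels is in C 11 (x axis, percent). The dashed line is the share over all genes that passed the same filter, 13.4%. Lists of mesoderm (75%) and collagen processing (64%) lie far above it. Fibroblast and mesenchyme (58.3%), primitive endoderm (53.8%) and extravillous trophoblast (50%) do so too. Granulosa and cumulus identity (38.5%) also lies above it, and trophectoderm, syncytiotrophoblast, epiblast and cumulus induction lie below it.

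The study asked what maternal testosterone, the diet, or both do to the embryo's transcripts. Comparisons with controls are given for the 4 genes that passed the low-level filter of at least 1 CPM in at least 5 libraries. VCAN, HAS2, COL1A1 and COL1A2 passed, and the other 6 genes did not. VCAN was at 2.76 ± 3.69 CPM in T, 1.38 ± 2.15 in WSD, 1.42 ± 1.19 in TWSD and 139 ± 295 CPM in C (SD, n = 10, 8, 2 and 5). The log2 change was -5.66 ± 1.43 (SE) for T, -6.64 ± 1.64 for WSD and -6.59 ± 3.09 for TWSD against C. COL1A1 was at 2.91 ± 6.42 CPM in T, 3.00 ± 1.98 in WSD, 1.83 ± 1.94 in TWSD and 253 ± 552 CPM in C, with changes of -6.45 ± 1.39, -6.39 ± 1.52 and -7.09 ± 2.97. All changes were below 0 in the fit of all libraries.

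These values rested on C 11. Without C 11 the VCAN change was -1.47 ± 1.34 for T and -2.46 ± 1.41 for WSD, and without C 8, C 11 and C 12 it was 1.21 ± 1.87 and 0.23 ± 1.77. The fit without C 8, C 11 and C 12 kept only C 1 and C 2 as controls, with the filter applied anew (13472 genes). COL1A1 was -1.02 ± 1.15 for T and -0.98 ± 1.20 for WSD without C 11. The HAS2 change was -3.98 ± 1.34 for T and -4.29 ± 1.47 for WSD with all libraries, -1.30 ± 1.35 and -1.61 ± 1.41 without C 11, and 0.52 ± 1.84 and 0.22 ± 1.84 without C 8, C 11 and C 12. COL1A2 turned without C 11, with -1.56 ± 1.35 for T and -2.50 ± 1.45 for WSD in all libraries and 1.53 ± 1.51 and 0.59 ± 1.47 without it. The edgeR threshold (quasi-likelihood F-test, Benjamini-Hochberg adjusted p) was passed by 2 of the 4 genes in T and in WSD against C, VCAN and COL1A1 in both, and by none in TWSD. Of all 13934 genes 4.11% were called in T, 4.07% in WSD and 1.2% in TWSD against C. These shares are no yardstick for the 4 genes, which were chosen from their control levels. COL1A1 lost its calls without C 11, and VCAN without C 11, in T also without C 12 and in WSD also without WSD 10. In TWSD, 2 of the 4 genes had an unadjusted p under 0.05, and DESeq2 called 2.

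**Figure D5:**
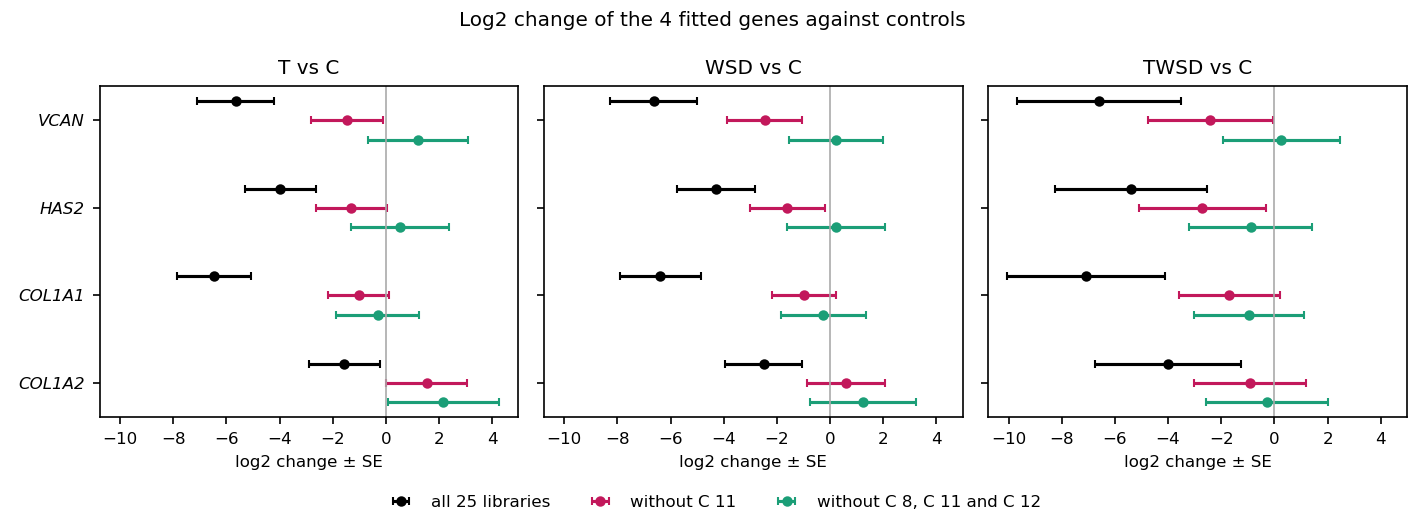
Log2 change (x axis, bars are SE) of VCAN, HAS2, COL1A1 and COL1A2 in T, WSD and TWSD against C, in fits of all 25 libraries, without C 11, and without C 8, C 11 and C 12. Without C 11 the points of VCAN, HAS2 and COL1A1 move toward 0, and COL1A2 crosses 0 in T (1.53) and WSD (0.59). Several points lie above 0 without all 3 controls.

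Genes of the pathways around the 10 were tested in the same fits, where 3.77% of all genes fell in T and 3.60% in WSD against C. With such shares a list of 20 to 26 genes holds about 1 fallen gene, so a single call in a list of that size is near the background. Of 20 fibrillar collagens and binders 1 fell in T against C, COL6A2 (-4.22 ± 0.91, adjusted p = 0.0114), and 4 fell in WSD against C, among them THBS1, a matrix glycoprotein (-7.43 ± 1.76, adjusted p = 0.0179), COL5A3 (-5.88 ± 1.46, adjusted p = 0.0236) and COL6A2 (-3.68 ± 0.97, adjusted p = 0.0321). The other, COL6A1 (-3.49 ± 0.95, adjusted p = 0.0355), lies outside the naming rule and was named after its value was seen. None rose. COL6A2 lost its call in T without C 11 (-1.66) and in WSD without any of 9 libraries, among them C 11 (-1.12) and C 12 (-4.00). COL5A3 lost its call without C 12 (-2.23), and THBS1 kept its call in WSD in each fit that left out 1 library. The median log2 change of the list was -2.40 in T and -1.88 in WSD, against -0.12 over all genes in both. Without C 8, C 11 and C 12 none was called and the medians were 1.31 and 1.29. With C 1 and C 2 as the only controls that fit has less power, and its filter may keep other genes of the list.

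Of 12 fibroblast and mesenchyme genes 3 fell in T: SNAI1, a transcription factor of mesenchymal change (-5.29 ± 0.89, adjusted p = 0.00312), VIM (-7.17 ± 1.46, adjusted p = 0.00914) and CDH11 (-6.46 ± 1.45, adjusted p = 0.0134). In WSD 2 of the 12 fell, SNAI1 (-5.12 ± 0.97, adjusted p = 0.0069) and CDH11 (-5.77 ± 1.54, adjusted p = 0.0339). SNAI1 was at 3960 CPM in C 12, unlike VIM and CDH11, which were high in C 11. Of 12 extra-embryonic mesoderm genes VIM and TBX20 (-5.26 ± 1.42, adjusted p = 0.0344) fell in T, and KDR (-6.40 ± 1.81, adjusted p = 0.0433) and BMP4 (-3.47 ± 1.01, adjusted p = 0.0496) fell in WSD. Of 26 BMP genes 1 fell in T, the inhibitory factor ID2 (-5.03 ± 1.40, adjusted p = 0.0405), and 3 fell in WSD, FST and BMP4 among them. Of 13 TGF-beta genes 2 fell in both, the matrix proteins CCN2 (-3.78 ± 0.74 in T, adjusted p = 0.00704) and CCN1 (-4.37 ± 0.99 in T, adjusted p = 0.0147). CCN1 was at 2835 CPM in C 12. Without C 12, SNAI1 (-2.53 in T, -2.38 in WSD), CCN1 (-0.36 and -0.41) and CCN2 (-1.25 in both) lost their calls, and without C 11 so did VIM (-1.38) and CDH11 (-0.14) in T. CDH11 in WSD turned to 0.55 without C 11. It and TBX20 (-3.08), KDR (-6.71), BMP4 (-3.53) and ID2 (-1.89) lost their calls without C 12 and also without several other libraries, among them C 11 for KDR (-1.69) and BMP4 (-2.31). Without C 8, C 11 and C 12 none of these was called, and a gene that missed the renewed filter was not tested there.

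Of 11 hyaluronan matrix genes none was called in T and 1 rose in WSD, HMMR (1.60 ± 0.45, adjusted p = 0.0411), a hyaluronan-binding protein that acts on the mitotic spindle. Of 10 cumulus induction genes PTGS2, the prostaglandin synthase, fell in T (-5.87 ± 1.60, adjusted p = 0.0362), and none was called in WSD. Of 13 granulosa and cumulus genes none was called in T, and FST, the activin antagonist follistatin (-9.69 ± 2.10, adjusted p = 0.0133), and CYP11A1, the first enzyme of steroid synthesis (-2.40 ± 0.53, adjusted p = 0.0133), fell in WSD. FST levels were 554 CPM (T 1), 2405 (C 8), 561 (C 11) and 3661 (C 12), and at most 11.2 CPM elsewhere. Of 25 collagen folding genes P4HB, a subunit of the prolyl hydroxylase, fell in T (-1.03 ± 0.29, adjusted p = 0.0418) and none was called in WSD. FST lost its call without C 12 (-8.88), CYP11A1 without C 8 (-1.59) or C 12 (-2.47), and HMMR, PTGS2 and P4HB without C 11, C 12 or any of several other libraries (P4HB -0.46 without C 12).

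Over all genes edgeR gave an unadjusted p under 0.05 for 18.3% in T, 18.3% in WSD and 22% in TWSD against C. For lists without a call, it gave one for 3 of 11 hyaluronan matrix genes (27.3%) and 8 of 13 granulosa and cumulus genes (61.5%) in T, and for 2 of 10 cumulus induction (20%) and 9 of 25 collagen folding genes (36%) in WSD, where DESeq2 called 3, 3, 0 and 4. No gene of the early ovary list (8 tested) or the granulosa defining list (2) was called in T or WSD by edgeR or DESeq2, with 2 and 1 at an unadjusted p under 0.05 in T and 1 and 1 in WSD. None of the 3 fibroblast defining genes tested was called, by DESeq2 either, and none had an unadjusted p under 0.05. Of 6 theca and luteal genes edgeR called none, with 2 unadjusted in T and 1 in WSD, and DESeq2 called 1 in T. In TWSD against C edgeR called none of the 142 genes of these 13 lists, with 51 (35.9%) at an unadjusted p under 0.05, and DESeq2 called up to 7 per list.

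The comparison of T with WSD holds no control library, so the 4 genes could be tested in it. The log2 change of T against WSD was 0.99 ± 1.23 for VCAN (95% interval -1.43 to 3.40), 0.32 ± 1.18 for HAS2 (-2.00 to 2.63), -0.06 ± 1.13 for COL1A1 (-2.28 to 2.16) and 0.94 ± 1.24 for COL1A2 (-1.49 to 3.37). None of the 4 passed in edgeR (adjusted p = 1 for each), none had an unadjusted p under 0.05, and DESeq2 called none. Of all genes 0% passed in edgeR, with 237 at an unadjusted p under 0.05, and DESeq2 called 6. TWSD was set against the mean of T and WSD, where edgeR called 0.1% of all genes. The change was -1.98 ± 2.27 for COL1A2 (adjusted p = 0.707), -1.25 ± 2.07 for HAS2 (0.806), -0.66 ± 1.89 for COL1A1 (0.892) and -0.45 ± 1.98 for VCAN (0.937), with none of the 4 at an unadjusted p under 0.05 and none called by DESeq2. With 2 TWSD libraries, the interval for COL1A2 ran from -6.44 to 2.48.

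The genes whose profiles were nearest to each were found by the mean absolute difference of centred log2 CPM over the 25 libraries. For COL1A2 they were SPARC (0.97), the cell-surface sialomucin PODXL (1.00) and BMP2 (1.07), where the median over genes was 2.60. For VCAN they were CAV2 (1.37), DNAH2 (1.41) and LOX (1.47), median 2.24. For HAS2 they were the fibrinogen chain FGG (1.26), KLB (1.46) and MTMR11 (1.47), median 2.30, and for COL1A1 the plasma protein plasminogen PLG (1.29), SGSM1 (1.35) and GSN (1.38), median 2.02. Without C 8, C 11 and C 12 the nearest was PRKCA for VCAN (1.02), ZFP41 for HAS2 (1.12) and RFX1 for COL1A1 (1.07), so a different gene came first for each of these 3.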

How the data were processed

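RNA sequencing was done on blastocysts, and per the submitters' processing notes reads were handled with FastQC 0.11.8 (quality), Trimmomatic 0.39 (trimming) and STAR 2.7.0 (alignment) on build Mmul_10. The table the authors deposited holds raw counts of reads, not normalized. For the counting tool, annotation release and strand setting: not given in the sources used here. Symbols were matched to 24173 of 35395 identifiers.

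Genes reaching 1 CPM in 5 or more of the 25 libraries (13934) were fitted in R 4.3.3 with edgeR 4.0.16 (TMM factors, robust quasi-likelihood F-test, 4 groups, adjusted p under 0.05 by Benjamini-Hochberg). The biological coefficient of variation was 0.9. SE is the log2 change over the root of F, and 95% intervals are normal. The step was tested on simulated data with less spread than these and no outlying library. That test cannot show how the step does where a single control stands apart. DESeq2 1.42.0, other scalings and left-out libraries were alternatives. Levels are TMM-scaled CPM, and likeness used a prior count of 2. The 10 genes and 19 lists (279 of 288 distinct list genes matched, some of them in several lists) were chosen with earlier results of these data known. They thus support nothing by themselves.

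Named list genes are, per comparison, up to 3 risen and 3 fallen genes with the smallest p, or else up to 2 with the highest mean CPM. Blood, placental, trophectoderm, epiblast and primitive endoderm lists served for levels, apart from the change given for CD14. A few genes that these rules name are not reported here. Library totals limit precision: 1 CPM was 14.2 counts in T 1 before TMM scaling. Of 84 pairs within groups none was a repeat (smallest chi-square per gene 47.4).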

Additional observations from a re-analysis of the deposited data

Results flagged for a closer look

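Within groups of 5 to 10 libraries, 21 of 30 gene and group combinations had a highest library far from the next by Dixon's test at the 95% level. Chance flags about 5% of groups, but 9 of the 21 are in controls, whose levels were used to choose the genes, and 4 of the other 12 are levels under 1 CPM, so the number is not set against that rate. In controls C 11 stood apart for VCAN (667 CPM), HAS2 (267), LUM (974), COL1A1 (1239.6), COL1A2 (1066) and COL3A1 (8644). C 8 stood apart for GREM1 (1.68 CPM), and C 12 for AMH (8.88) and FOXL2 (10.9).

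In T, T 1 stood apart for TNFAIP6 (48.9 CPM), LUM (3.83) and COL1A1 (20.9), T 6 for COL3A1 (8.21), T 4 for AMH (0.347) and T 8 for GREM1 (0.119) and FOXL2 (0.119). In WSD, WSD 3 stood apart for VCAN (6.28 CPM), WSD 7 for HAS2 (15.5), WSD 10 for GREM1 (2.24), and WSD 4 for COL3A1 (8.53) and FOXL2 (0.0853). Values near 0.1 CPM rest on a few counts.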

How the results depend on the processing

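The 7 genes highest in C 11, and AMH, FOXL2 and GREM1, kept their highest library with size factors and library totals. Against controls, library totals gave 240 called genes (T), 321 (WSD), 96 (TWSD) and 5 for TWSD against the mean of T and WSD. No filter gave 1 called member in T, 0 in WSD and 92 genes in TWSD. DESeq2 called 1102, 1185 and 1995 genes in T, WSD and TWSD against C, 2 members in TWSD, 6 genes in T against WSD and 675 in TWSD against the mean. Fits of only the groups compared gave 67, 6 and 0 genes against C, 610 for TWSD against the mean, and 0 members in T and WSD. Without T 1 edgeR called 886 genes in T and 340 in TWSD.

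Without C 8, C 11 and C 12, edgeR called 0, 1 and 20 genes in T, WSD and TWSD, 517 in TWSD against the mean, and 0 members in T and WSD. Signs turned in T for VCAN (1.21), HAS2 (0.52), COL1A2 (2.17), PTGS2 (7.35), COL6A2 (0.83), P4HB (0.0245), SNAI1 (0.20), VIM (0.0829), ID2 (1.46), CCN2 (0.59) and CCN1 (1.23). In WSD they turned for VCAN (0.23), HAS2 (0.22), COL1A2 (1.23), COL6A2 (1.37), SNAI1 (0.36), KDR (2.21), CCN2 (0.59) and CCN1 (1.18), and in TWSD for VCAN (0.25). With T 1 also left out, 0, 1 and 71 genes and 626 against the mean were called, and 0 members in T and WSD. Values were 1.17 for VCAN, 1.52 for COL1A2, 7.51 for PTGS2, 0.58 for COL6A2, 0.16 for SNAI1, 0.20 for ID2, 0.56 for CCN2 and 0.94 for CCN1 in T. In WSD they were 0.21 for VCAN, 0.19 for HAS2, 1.20 for COL1A2, 1.34 for COL6A2, 0.33 for SNAI1, 0.57 for CCN2 and 1.16 for CCN1, and 0.26 for VCAN in TWSD. T against WSD was -0.40 for HAS2, and TWSD against the mean 0.16 for COL1A1. With T 1 alone left out these were -0.41 and 0.18.

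Leaving out 1 library at a time gave 40 (without C 12) to 1287 (without C 1) genes in T against C and 51 (C 12) to 1110 (C 1) in WSD. TWSD against C ran from 0 (TWSD 2) to 2786 (TWSD 3), and TWSD against the mean from 0 to 2707, where the lone TWSD library is assumed to vary like the other groups. T against WSD stayed at 0, and members called ran from 0 to 3 in T and 0 to 2 in WSD. Signs turned for COL1A1 in T against WSD (-1.72 to 0.20) and TWSD against the mean (-2.69 to 0.18), COL1A2 in T (-2.20 to 1.53) and WSD (-2.88 to 0.59), CDH11 in WSD (-7.15 to 0.55), HAS2 in T against WSD (-0.41 to 1.50) and VCAN in TWSD against the mean (-1.75 to 0.21). The cause was not tested.

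The labels do not say whether a replicate number pairs libraries across groups. Over 16 same-number pairs the correlation of deviations ran from -0.376 to 0.222, with 3 over 0.1. Its mean was -0.033, against 0.003 for pairs with other numbers. Such correlations cannot exclude that a number marks a shared parent or batch. With the replicate block edgeR called 0 genes in T, WSD and TWSD against C and in TWSD against the mean, and 0 members in T and WSD. Signs turned in T against WSD for HAS2 (-0.37) and COL1A2 (-0.96), and in TWSD against the mean for VCAN (1.08) and COL1A1 (2.15).

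Depth limits the low genes: GREM1, AMH and FOXL2 had 132, 283 and 225 counts in all 25 libraries. Levels under 0.211 CPM (by library total, before TMM scaling) thus cannot be told from 0 in the shallowest library.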
